A study of Homo sapiens with 12 samples.

Results

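The 40 genes described here act in mitosis and cytokinesis, the steps in which a cell separates its duplicated chromosomes and then divides its cytoplasm. CEP55 is among them. The members were taken from a fixed list of symbols, and every non-control probe that carried such a symbol on the arrays was read. All 40 genes were found, through 48 of the 50493 probes measured on every array, and all 40 passed the filter on dim probes that left 24860 genes. Each of the 48 probes read above background (by the scanner's flag) on 12 of 12 arrays.

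The arrays measured messenger RNA in 3 lung adenocarcinoma cell lines: A549, PC14 and PC14CDDP, a cisplatin-resistant line derived from PC14. Each line was transfected with 25 nM of 4 oligonucleotides. These were premiR-197, a precursor that supplies miR-197, its negative control NC (named AllStar-NC in the labels), LNA-miR-197, a locked nucleic acid inhibitor of miR-197, and its control LNA-miR-NC. From each transfection 100 ng of RNA was hybridised to 1 one-colour Agilent array. With 1 array for each line and transfection, the 3 lines are the replicates of a comparison between transfections, and p-values measure only the spread between these arrays. Each level below is the log2 ratio of the processed signal to the 75th percentile of its array, and each change is a difference of such levels. The A549 arrays lay on slide 1 and the arrays of PC14 and PC14CDDP on slide 2, so line and slide cannot be told apart where A549 is compared with PC14. The PC14 and PC14CDDP arrays lay in different rows of slide 2, so row and line cannot be told apart between them. A transfection also had a fixed slide column, so column and transfection cannot be told apart either.

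The epithelial keratins KRT7, KRT8, KRT18 and KRT19 read above background on all 12 arrays, and 4 of the 5 fibroblast markers (COL1A2, DCN, LUM and PDGFRB) on 0. The probes of PTPRC, CD14, CDH5 and VWF, which mark leukocytes and endothelium, were above background on all 12. EPCAM was above background on 4 A549, 3 PC14 and 0 PC14CDDP arrays, CDH1 on 4, 2 and 0, and the lung factor NKX2-1 on 0, 4 and 4. Of the other lung epithelial markers, NAPSA and the surfactant gene SFTPC read above background on all 12 arrays, and SFTPB and SFTA3 on 0. None of PTPRC, CD14, CDH5 and VWF was called between transfections. The fibroblast marker COL1A1 was called lower after LNA-miR-197 (log2 change -1.03). The part of any of these in the results below was not tested.

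Mitosis is driven by CDK1 bound to cyclins A2, B1 and B2, with the kinases PLK1 and AURKA at the centrosomes and spindle. The spindle checkpoint (BUB1, BUB1B, TTK, MAD2L1) holds the cell until every kinetochore is attached. CDC20 and UBE2C then act with the anaphase-promoting complex to degrade securin, the product of PTTG1, which frees separase (ESPL1) to part the sister chromatids. The chromosomal passenger complex (AURKB, BIRC5, INCENP, CDCA8) corrects attachments and moves to the midzone. There ECT2, RACGAP1, KIF23, KIF20A, PRC1 and ANLN direct the cleavage furrow, and CEP55 recruits the abscission machinery to the midbody. Transcripts of this kind peak in G2 and mitosis. In a bulk sample a smaller share of dividing cells and less RNA in each dividing cell cannot be told apart.

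The oligonucleotides concern miR-197, and the labels do not say which arm of the hairpin is meant. Both mature arms are printed because the mimic and the inhibitor are built on this sequence. They are from RefSeq, lie on the plus strand of GRCh38.p14, and carry the seed (bases 2 to 8) in capitals. The 3p arm is at chr1:109598940-109598961 and the 5p arm at chr1:109598901-109598923.
hsa-miR-197-3p: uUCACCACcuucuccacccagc
hsa-miR-197-5p: cGGGUAGAgagggcagugggagg
The complement of the 3p seed, GTGGTGA, was present in 0 of the 48 member probe sequences, against 0.51% of all 50599 probes, and that of the 5p seed, TCTACCC, in 0 against 0.283%. The probes cover only a short stretch of each transcript, so this says only that the probed stretches lack these letters.

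The members share promoter letters that the list did not use. The cell-cycle homology region (TTTGAA or TTTAAA) and the CCAAT box are the sequence elements known from promoters of genes expressed in G2 and mitosis. In windows from 250 bases before to 50 bases after the start, read on either strand, RefSeq entries matched 34 of the 40 members and 27305 genes in all. CCAAT was present in 28 of the 34 members (82.4%) against 39.7% of all genes. TTTGAA was present in 26 (76.5%) against 18.2%, and TTTAAA, which is its own reverse complement, in 12 (35.3%) against 14.5%. Either TTTGAA or TTTAAA lay within 50 bases of the start in 27 members (79.4%) against 9.41%. CCAAT stood with TTTGAA or TTTAAA in the same window in 25 members (73.5%) against 11.2%. These matches are letters in a window, not shown binding sites. Promoters of 5 members named below are shown up to the motif, which is in capitals, on the plus strand of GRCh38.p14. For each gene the match nearest to a start over its RefSeq entries was taken, so the distances are the smallest found. TTCAAA is TTTGAA on the other strand. The motif begins 3 bases before the start in CEP55 (chr10:93496585-93496614), NDC80 (chr18:2571530-2571559) and KIF2C (chr1:44739810-44739839), 10 bases before in INCENP (chr11:62123977-62124006) and 55 bases before in KIF23 (chr15:69414270-69414299).
CEP55: gtgccccgccctgcagccgcgggaTTCAAA
NDC80: atgacgtcagcgccggcggagaatTTCAAA
KIF2C: ttttaaggacgcttgcgcgcgggaTTTAAA
INCENP: ccgaggattggctgagccttcagtTTTGAA
KIF23: tgcggacgggcgctgattggcccgTTTGAA

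CEP55 was the member whose level lay below the control in every line after premiR-197 and above it in every line after LNA-miR-197, with neither mean change called. Its probe lies at hg19 chr10:95288754-95288813 and was read from 10 spots. In A549 the level of CEP55 was 3.95 after premiR-197, 4.01 after NC, 4.14 after LNA-miR-197 and 3.76 after LNA-miR-NC. In PC14 the same order of transfections gave 3.78, 4.14, 4.39 and 4.21, and in PC14CDDP 3.55, 3.95, 3.72 and 3.71. The premiR-197 array was thus the lowest of PC14 and of PC14CDDP, while in A549 the LNA-miR-NC array was the lowest. The premiR-197 log2 changes against NC were -0.06 (A549), -0.37 (PC14) and -0.40 (PC14CDDP), with a mean of -0.28 (SE 0.14, n = 3 lines, 95% interval -0.59 to 0.04, limma adjusted p = 0.372). After LNA-miR-197 the log2 change against LNA-miR-NC was 0.38, 0.18 and 0.02, with a mean of 0.19 (95% interval -0.12 to 0.51, n = 3 lines, limma adjusted p = 0.412). On this probe PC14CDDP thus had the largest change after the mimic, close to that of PC14, and hardly any after the inhibitor. A549 had the reverse. An exact two-sided sign-flip permutation test over the 3 lines gave p = 0.25 for each, the smallest it can give. The LNA-miR-197 change exceeded the premiR-197 change by 0.47 (SE 0.19, 95% interval 0.02 to 0.91), which did not pass over all genes (limma adjusted p = 0.259).

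The second CEP55 probe (hg19 chr10:95279478-95279537, 1 spot) gave the same signs with other sizes. Its log2 changes after premiR-197 were -0.03 (A549), -0.26 (PC14) and -0.17 (PC14CDDP), so the largest was in PC14 and not in PC14CDDP. With LNA-miR-197 they were 0.61, 0.45 and 0.43, so the PC14CDDP change was close to that of PC14 on this probe and near 0 on the first. The mean of both probes gave a log2 change of 0.34 after LNA-miR-197 (limma adjusted p = 0.139). Of the 8 members with 2 probes (CDK1, CEP55, CENPF, KIF4A, KIF23, ZWINT, CCNB1 and PLK1), 7 had the same sign of the mean change on both probes after premiR-197 and 7 after LNA-miR-197. The exception each time was CCNB1, and 0 genes had opposite signs in all 3 lines.

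**Figure D1:**
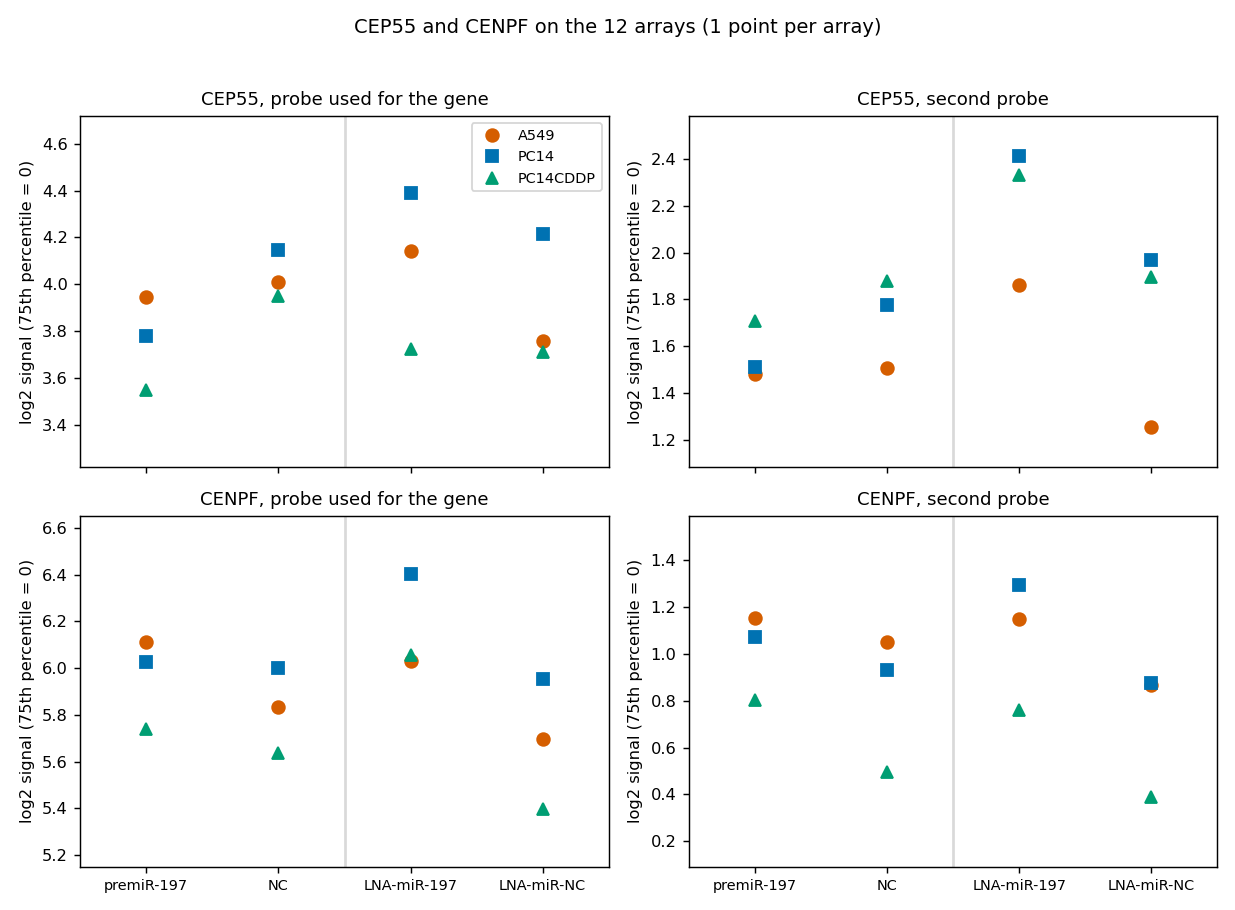
Log2 level (processed signal over the array's 75th percentile) of both probes of CEP55 and of CENPF, a kinetochore and nuclear matrix protein gene, on each of the 12 arrays. There is 1 point per array, placed by transfection, with the cell line shown by colour and marker. CEP55 lay lowest after premiR-197 in PC14 and PC14CDDP, and CENPF in all 3 lines lay higher with LNA-miR-197 than with its control.

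After premiR-197 nearly every mitotic gene lay above NC in A549 and the genes lay on either side of it in the other lines. The count above NC was 39 of 40 in A549 (54% of all genes), 25 in PC14 (50.1%) and 18 in PC14CDDP (51.8%). CEP55 was the member below NC in A549. limma called 0 members lower, where 0.145% of all genes were called lower, and 0 higher, where 0.0644% were. Of the 40 members, 3 had an unadjusted p under 0.05 (15.9% of all genes did), the lowest adjusted p was 0.145, and the methods' t-test also called 0 after adjustment. The median log2 change of the 40 was 0.11, against 0.02 over all genes. Above NC in all 3 lines were 16 members, and 1, CEP55, was below NC in all 3, against 23.8% and 20.1% of all genes.

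By line, the members had a median log2 change of 0.27 (A549), 0.03 (PC14) and -0.02 (PC14CDDP). In A549 21 members were at least 1.2-fold higher (19.4% of all genes were) and 0 at least 1.2-fold lower (18.9% of all genes were). In PC14 3 members were higher (19.8%) and 2 lower (20.6%) by that fold, and in PC14CDDP 2 (24.1%) and 4 (25.1%). The 40 genes share these arrays, so they are not replicates, and the difference between lines rests on 1 array for each transfection.

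NDC80 and CDC20 had the largest mean changes of 1 sign in every line, and neither was called. NDC80, a subunit of the complex that binds microtubules at the kinetochore, had levels of 3.26, 4.44 and 5.35 after premiR-197 in A549, PC14 and PC14CDDP, against 2.79, 4.13 and 5.05 after NC. Its log2 changes were 0.48, 0.31 and 0.30, with a mean of 0.36 (limma adjusted p = 0.145). Each premiR-197 array lay above the NC array of its own line, although the lines themselves were further apart. CDC20, the activator of the anaphase-promoting complex, changed by 0.43, 0.28 and 0.25, with a mean of 0.32 (limma adjusted p = 0.285). Of the 7 kinetochore genes, 5 (NDC80, NUF2, SPC25, CENPE and CENPF) lay above NC in all 3 lines, while ZWINT and CENPA did not.

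The genes for entry into mitosis split by line. All 6 (CDK1, CCNA2, CCNB1, CCNB2, PLK1 and AURKA) lay above NC in A549, 1 (PLK1) in PC14 and 0 in PC14CDDP, and their medians were 0.22, -0.12 and -0.16. CCNB2, a cyclin B, had log2 changes of 0.14 (A549), -0.25 (PC14) and -0.55 (PC14CDDP). The kinase gene AURKA had 0.23, -0.21 and -0.46. INCENP, the scaffold of the chromosomal passenger complex, had the widest split, with 0.27 in A549 against -0.51 in PC14 and -0.50 in PC14CDDP (mean -0.24, limma adjusted p = 0.571). The other 3 genes of that complex, AURKB, BIRC5 and CDCA8, lay above NC in all 3 lines. For the 8 checkpoint and anaphase genes the medians were 0.30, 0.03 and -0.09, for the 6 spindle genes 0.25, 0.01 and -0.01, and for the 7 cytokinesis genes 0.25, 0.05 and -0.02. The chromosome structure genes TOP2A, a topoisomerase, and KIF4A, a chromokinesin whose probe may also read its near-identical copy KIF4B, had mean log2 changes of 0.17 and 0.12.

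**Figure D2:**
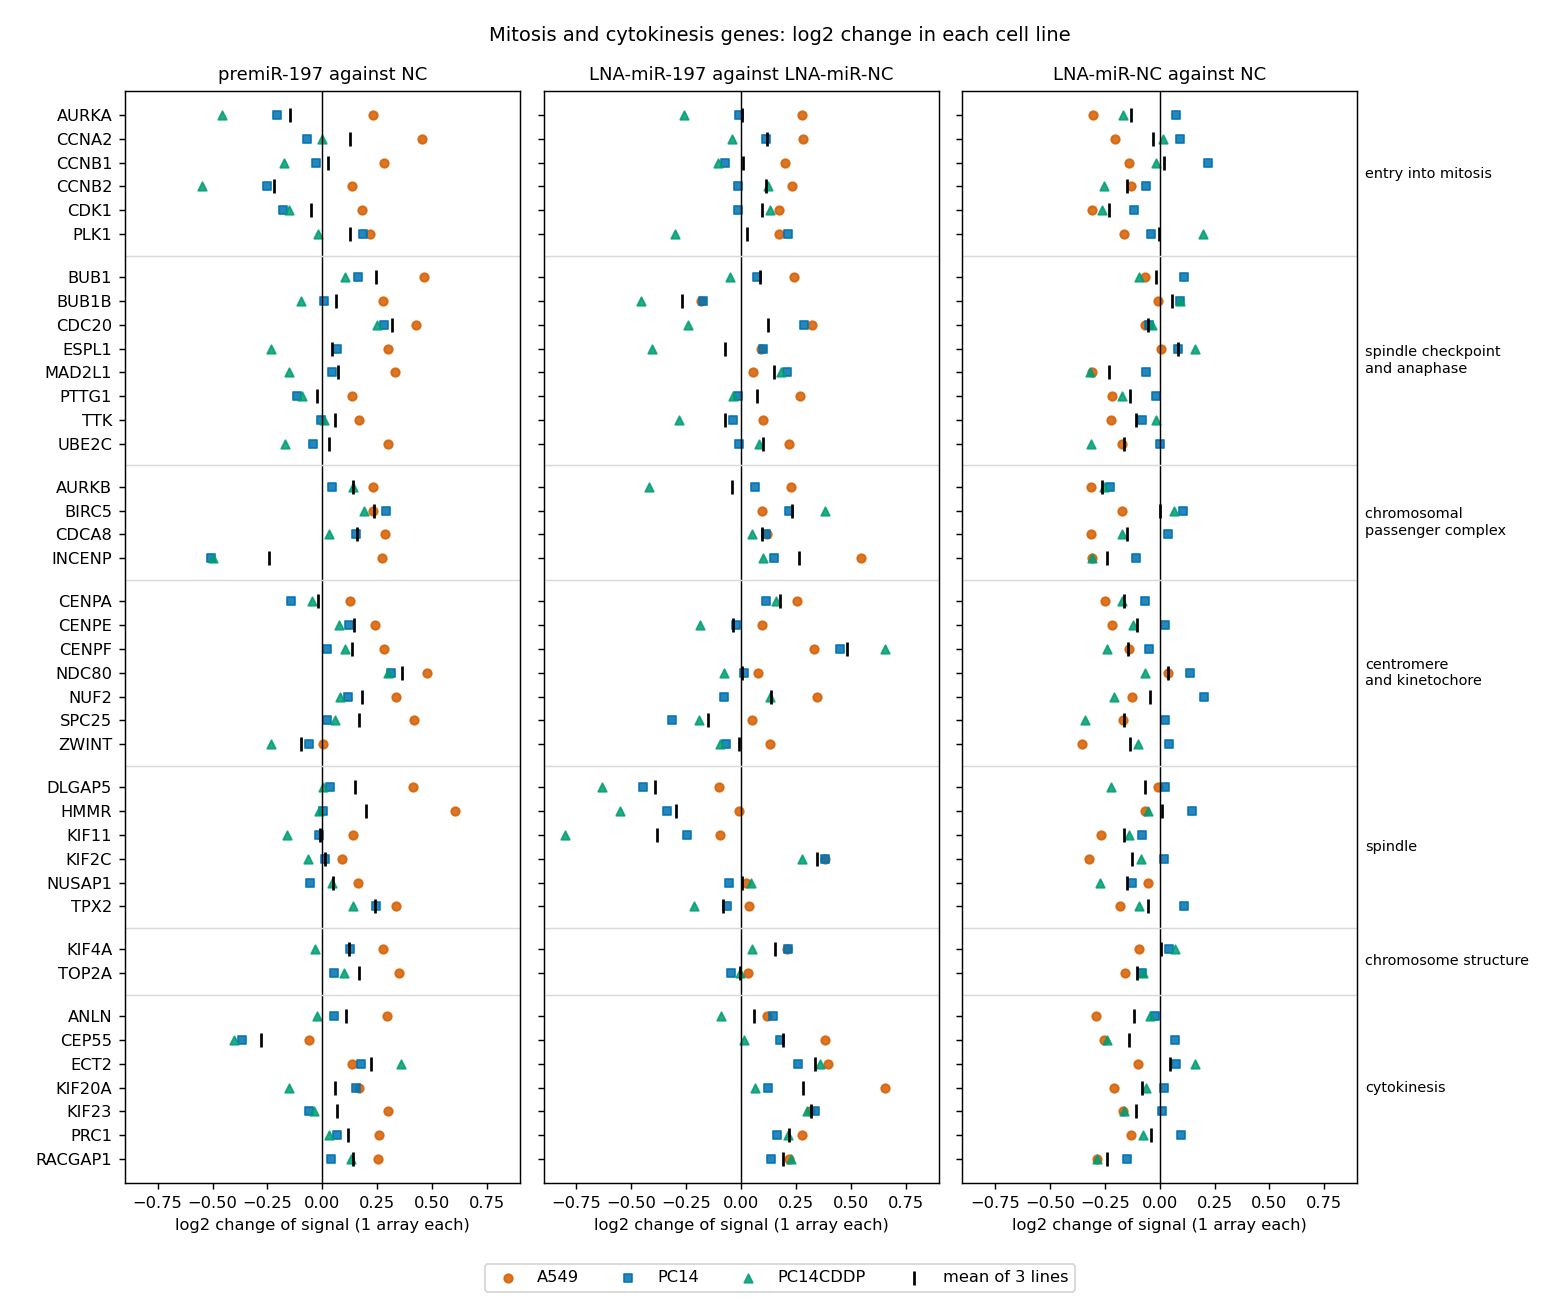
Log2 change of each of the 40 members in A549, PC14 and PC14CDDP (3 points per gene), ordered by role, with a panel each for the mimic against NC, the inhibitor against LNA-miR-NC, and LNA-miR-NC against NC. The A549 points lie to the right of 0 for 39 genes after premiR-197 and for 36 after LNA-miR-197, and to the left for 38 in the comparison of the controls. In the last panel PC14CDDP has 33 genes to the left of 0 and PC14 has 24 to the right.

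After LNA-miR-197, the inhibitor, CENPF rose. Of the 7 cytokinesis genes 6 lay above LNA-miR-NC in all 3 lines, while of the 6 spindle genes 3 lay below it in all 3. CENPF, the gene of a large kinetochore and nuclear matrix protein that accumulates in G2, had levels after LNA-miR-197 of 6.03 (A549), 6.40 (PC14) and 6.05 (PC14CDDP), against 5.69, 5.95 and 5.40 after LNA-miR-NC. The lowest LNA-miR-197 level was above the highest control level. The log2 changes were 0.33, 0.45 and 0.66, with a mean of 0.48 (SE 0.11, n = 3 lines, 95% interval 0.23 to 0.74, limma adjusted p = 0.0407). The second probe (hg19 chr1:214826239-214826298, against chr1:214837308-214837367 for the first) gave 0.28, 0.42 and 0.37. CENPF was the 1 member called higher (2.5% of the 40, against 4.09% of all genes), and 0 were called lower, against 3.58% of all genes. At an unadjusted p under 0.05 there were 7 members, against 27% of all genes, and the methods' t-test called 0 after adjustment. The adjusted p of CENPF ranged from 0.00941 to 1 over the alternative settings, and was 0.0927 without A549, 0.254 without PC14 and 0.328 without PC14CDDP.

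Among the cytokinesis genes the exception was ANLN, an anillin that cross-links the furrow, which was below LNA-miR-NC in PC14CDDP. The group medians were 0.31 in A549, 0.17 in PC14 and 0.22 in PC14CDDP. ECT2, the exchange factor that activates RhoA at the furrow, had log2 changes of 0.39, 0.26 and 0.36, with a mean of 0.34 (limma adjusted p = 0.0567). Its levels after LNA-miR-197 were 2.54, 2.90 and 2.50, against 2.15, 2.64 and 2.14. KIF23, the kinesin of the centralspindlin complex, had 0.31, 0.34 and 0.30, with a mean of 0.32 (limma adjusted p = 0.138). The changes of ECT2 and KIF23 lay within 0.26 to 0.39 in the 3 lines, and differences between lines were not tested. KIF20A had 0.66, 0.12 and 0.06, and like RACGAP1 and PRC1 it lay on the higher side in every line.

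Of the 6 spindle genes 0 were called. Their medians were 0.01 (A549), -0.15 (PC14) and -0.38 (PC14CDDP), with 3 genes on each side of the control in A549. KIF11, the motor that pushes the spindle poles apart, had levels of 3.08, 2.83 and 2.27 after LNA-miR-197, against 3.17, 3.08 and 3.07 after LNA-miR-NC. Its log2 changes were -0.09, -0.25 and -0.80, with a mean of -0.38 (limma adjusted p = 0.145), and the PC14CDDP array stood lowest. DLGAP5, a spindle-stabilising protein gene, had -0.10, -0.45 and -0.63 (mean -0.39, limma adjusted p = 0.127), and HMMR -0.01, -0.34 and -0.55. KIF2C, a microtubule-depolymerising kinesin, had 0.38, 0.38 and 0.28 (mean 0.35, limma adjusted p = 0.0946). TPX2 and NUSAP1 had mean log2 changes of -0.08 and 0.00. Among the checkpoint genes BUB1B lay below the control in every line, with -0.18, -0.17 and -0.46 (mean -0.27, limma adjusted p = 0.174).

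Over the 40 members the median log2 change after LNA-miR-197 was 0.09, against 0.00 over all genes. By line it was 0.20 in A549, where 36 members lay above the control (52.8% of all genes did), 0.07 in PC14 with 22 above (48.1%), and -0.02 in PC14CDDP with 19 above (50.7%). In all 3 lines 14 members were higher and 4 lower, against 24.6% and 22.9% of all genes.

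The control oligonucleotides were also compared with each other, since each is the reference of a comparison above. LNA-miR-NC against NC gave 0 called members in either direction by limma, where 0.197% of all genes were called lower and 0.459% higher. At an unadjusted p under 0.05 there was 1 member, against 14.1% of all genes, and the methods' t-test called 0 after adjustment. Even so, 38 of the 40 members lay lower on the LNA-miR-NC array in A549 (60.3% of all genes did), with a median of -0.17. In PC14 24 members lay higher (47.1% of all genes), with a median of 0.02, and in PC14CDDP 7 did (41.9%), with a median of -0.11. Lower in all 3 lines were 15 members and higher in all 3 was 1, against 28.4% and 16.1% of all genes. RACGAP1, the GTPase-activating partner of KIF23, had -0.28, -0.15 and -0.29 (mean -0.24, limma adjusted p = 0.297). AURKB, the kinase of the passenger complex, had -0.31, -0.23 and -0.26 (mean -0.27, limma adjusted p = 0.453), and INCENP had -0.31, -0.11 and -0.31 (mean -0.24).

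The levels of the 40 genes on each array, taken from the mean of its line, show which arrays the A549 medians rest on. In A549 the median member lay 0.24 above the line mean after premiR-197 and -0.21 from it after LNA-miR-NC, while NC and LNA-miR-197 were at -0.02 and 0.00. The premiR-197 array was the highest of the A549 arrays for 37 of the 40 genes, and the LNA-miR-NC array the lowest for 34. Arrays of PC14 and PC14CDDP had medians between -0.06 and 0.07. The share of probes above background was 60.3% to 62.5% on the A549 arrays. Under quantile normalization, normexp background correction and a percentile over the probes that read above background on every array, which was chosen after seeing the data, 38 members lay above NC in A549 after premiR-197 in each case. The same settings gave 32, 37 and 31 members above LNA-miR-NC after LNA-miR-197, and 31, 40 and 32 members lower on LNA-miR-NC than on NC.

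**Figure D3:**
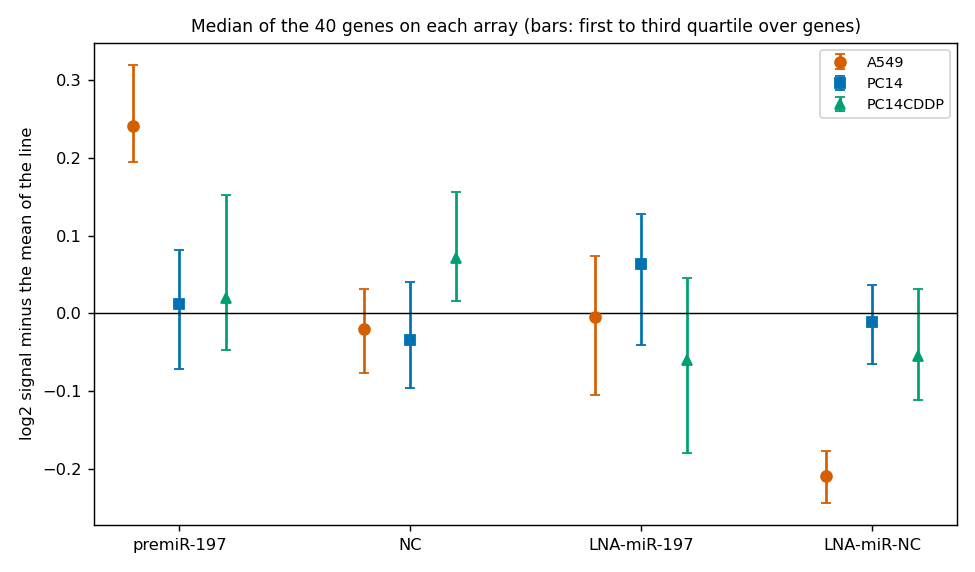
Median over the 40 members of the log2 level minus the mean of that gene over the 4 arrays of its line, for each of the 12 arrays, with bars from the first to the third quartile of the 40 genes. The premiR-197 array (0.24) and the LNA-miR-NC array (-0.21) of A549 stand apart, and the other 10 arrays lie between -0.06 and 0.07.

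With NC in place of LNA-miR-NC as the reference of LNA-miR-197, KIF11 fell and ECT2 rose, and CENPF was not called. This comparison shares its LNA-miR-197 and NC arrays with those above. NC is the control of premiR-197, so the kind of oligonucleotide and the inhibition of miR-197 cannot be told apart here. KIF11 changed by -0.36 (A549), -0.33 (PC14) and -0.94 (PC14CDDP) (mean -0.54, limma adjusted p = 0.0458) and was the 1 member called lower where 7.49% of all genes were. ECT2 had 0.29, 0.34 and 0.52 (mean 0.38, limma adjusted p = 0.0285) and was the 1 member called higher where 6.97% of all genes were. The groups of 3 arrays overlapped for ECT2. For KIF11 they did not, since its highest LNA-miR-197 level (3.08) was under its lowest NC level (3.16). CENPF (0.34, limma adjusted p = 0.0774) and DLGAP5 (-0.46, limma adjusted p = 0.068) were not called.

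When the LNA-miR-197 change was set against the premiR-197 change of the same line, limma called 0 members lower and 0 higher, where 0.0483% and 0.0885% of all genes were called. At an unadjusted p under 0.05 there were 3 members, against 18% of all genes, the lowest adjusted p was 0.222, and the methods' t-test called 0 after adjustment. These 3 were CEP55, at 0.47, NDC80, at -0.36, and DLGAP5, at -0.54 for the LNA-miR-197 change minus the premiR-197 change.

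More members were called between the cell lines than between the transfections, and so were more of all genes. Called in each direction were 22.8% to 36.1% of all genes between lines and at most 7.49% between transfections. PC14CDDP and A549 were each compared with PC14 over 4 arrays a line, which are 4 transfections of 1 line, so p-values cover the spread between these arrays and not between lines of a kind. Both comparisons share the PC14 arrays. Of the 40 members, 26 had their highest mean level in PC14CDDP, 11 in PC14 and 3 in A549. The lowest was in A549 for 28, in PC14 for 7 and in PC14CDDP for 5.

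In PC14CDDP against PC14, 17 members rose (25.6% of all genes did) and 5 fell (22.8% of all genes did). The median log2 difference of the 40 was 0.21, against 0.05 over all genes. The largest rises were in a checkpoint kinase, a cyclin, a kinetochore subunit and separase. TTK, the checkpoint kinase, had a level of 2.34 ± 0.15 (SD, n = 4) in PC14CDDP and 1.40 ± 0.06 (SD, n = 4) in PC14, a difference of 0.95 (1.93-fold, limma adjusted p = 6.52e-05). CCNA2, cyclin A2, was higher by 0.85 (limma adjusted p = 0.000997), ZWINT, a kinetochore scaffold, by 0.83 (limma adjusted p = 0.000234), and ESPL1, separase, by 0.80 (limma adjusted p = 0.000903). The arrays of these lines did not overlap for 16 members on the higher side and 5 on the lower, against 19.2% and 17% of all genes, and overlapped for 19.

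The 5 that fell were PTTG1, KIF20A, ECT2, CEP55 and CENPF. PTTG1, securin, whose probe may also read its near-identical copies PTTG2 and PTTG3P, had 6.78 ± 0.09 (SD, n = 4) in PC14CDDP and 7.47 ± 0.05 (SD, n = 4) in PC14, a difference of -0.69 (limma adjusted p = 0.000413). The midzone kinesin gene KIF20A differed by -0.68 (limma adjusted p = 0.00136), ECT2 by -0.47 (limma adjusted p = 0.00118), CENPF by -0.39 (limma adjusted p = 0.0102) and CEP55 by -0.40 (limma adjusted p = 0.023). Thus 3 of the 7 cytokinesis genes were among those lower in PC14CDDP, while RACGAP1 (0.48) and KIF23 (0.40) rose. Separase and its inhibitor securin differed in opposite directions. By role, lower and higher calls were 0 and 3 for mitotic entry (CDK1, CCNA2 and AURKA), 1 and 5 for the checkpoint and anaphase, 0 and 1 for the passenger complex (AURKB), 1 and 5 for the kinetochore, 0 and 1 for the spindle (TPX2) and 0 and 0 for chromosome structure.

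For CEP55 the difference between PC14CDDP and PC14 depended on the probe. On the first probe the level was 3.73 ± 0.16 (SD, n = 4) in PC14CDDP, 4.13 ± 0.26 (SD, n = 4) in PC14 and 3.96 ± 0.16 (SD, n = 4) in A549, and the ranges of the 3 lines overlapped. The second probe differed by 0.04 between PC14CDDP and PC14, and the mean of both probes by -0.18 (limma adjusted p = 0.223), so the call rests on the first probe. CCNB1 was the other member whose probes had opposite signs in this comparison.

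In A549 against PC14, 26 members fell (32.1% of all genes did) and 2 rose (36.1% of all genes did), with a median of -0.41 against 0.09 over all genes. KIF2C had the largest difference, with 4.004 ± 0.19 (SD, n = 4) in A549 and 5.78 ± 0.20 (SD, n = 4) in PC14, or -1.78 (3.42-fold lower, limma adjusted p = 1.23e-06). KIF20A followed at -1.45 (limma adjusted p = 9.21e-06), NDC80 at -1.34 (limma adjusted p = 2.58e-06) and CDCA8, which encodes borealin of the passenger complex, at -1.27 (limma adjusted p = 1.09e-05). The 2 that rose were CCNB2 (0.46, limma adjusted p = 0.00735) and CDK1 (0.32, limma adjusted p = 0.0174), both of the mitotic entry kinase. Arrays did not overlap for 23 members on the lower side and 1 on the higher, against 27.7% and 30.9% of all genes, and overlapped for 16.

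All 4 passenger complex genes and 7 of the 8 checkpoint and anaphase genes fell in A549. The others that fell were 5 of the 7 kinetochore genes, 4 of the 6 spindle genes, 3 of the 7 cytokinesis genes (KIF20A, ECT2 and ANLN), 2 of the 6 mitotic entry genes (CCNA2 and PLK1), and KIF4A. CEP55 differed by -0.17 (limma adjusted p = 0.239) and was not called. Side by side, TTK was 0.95 higher in PC14CDDP and -0.26 from PC14 in A549, CCNA2 0.85 and -1.24, NDC80 0.80 and -1.34, and PTTG1 -0.69 and -0.77.

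**Figure D4:**
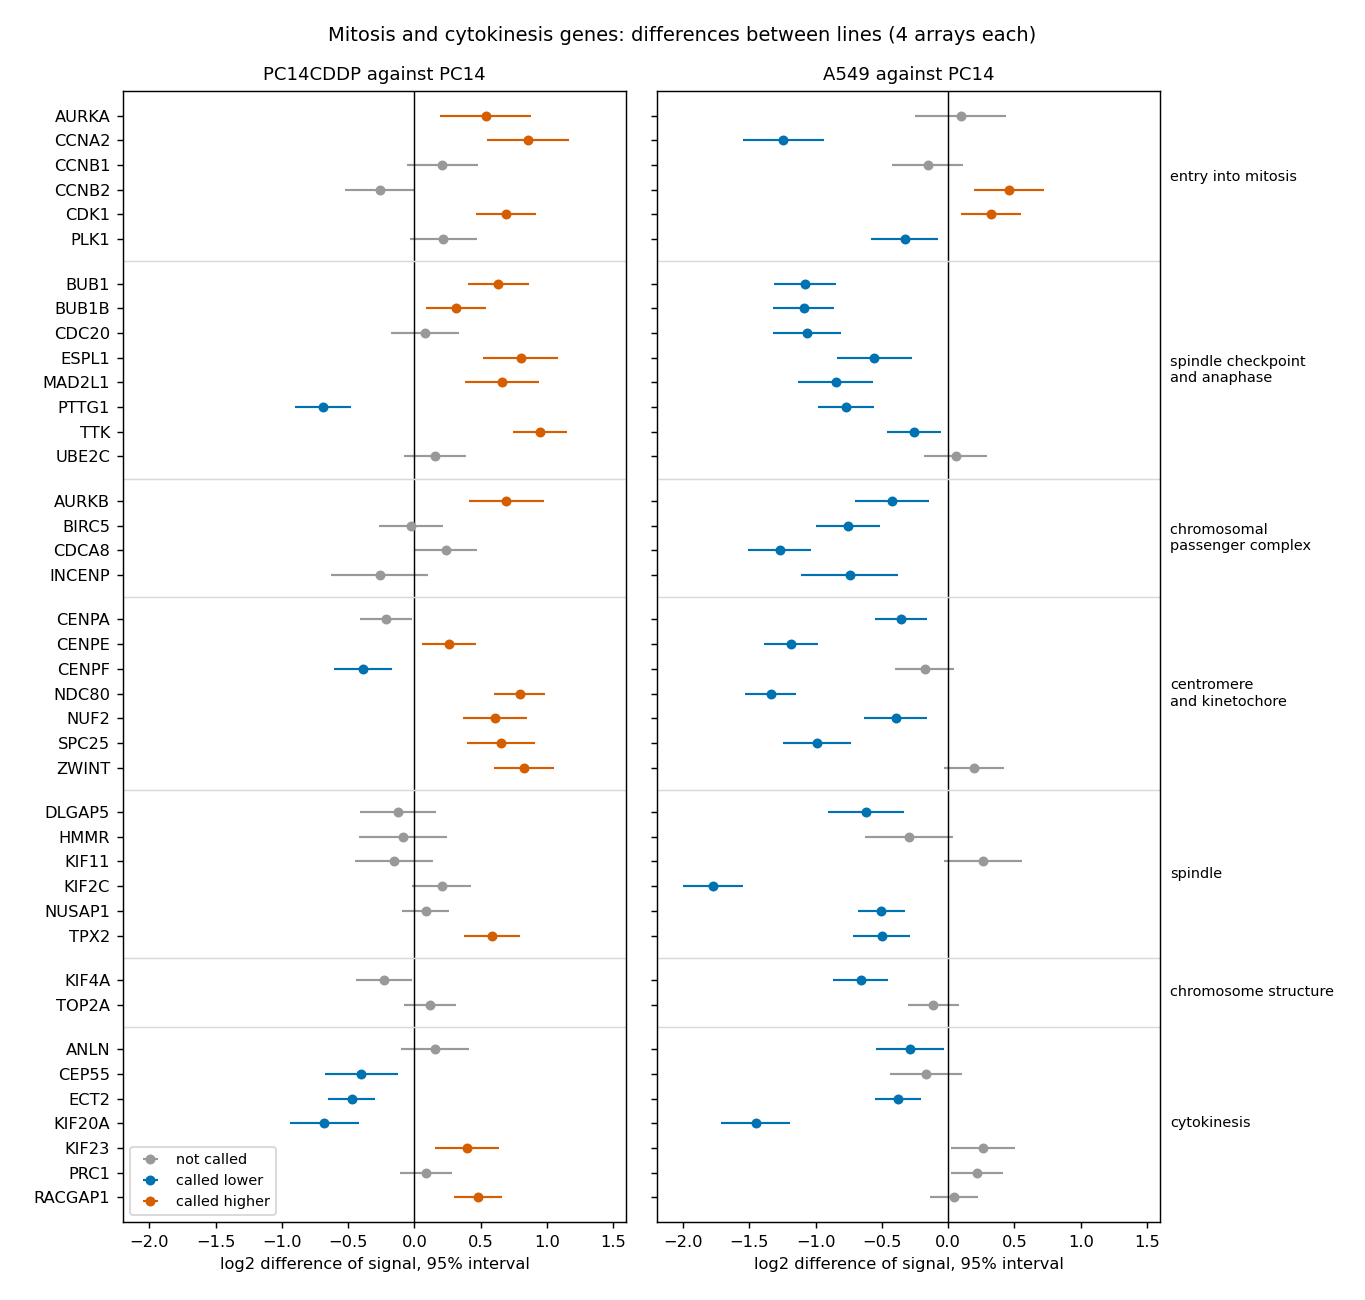
Log2 difference of each of the 40 members in PC14CDDP minus PC14 and in A549 minus PC14, with bars for the 95% interval from limma (4 arrays a line), ordered by role. Most members lie to the right of 0 in PC14CDDP (17 called higher, 5 lower) and to the left in A549 (26 called lower, 2 higher).

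Genes that act with the members were read from further lists. Of 20 abscission genes, which encode ESCRT proteins and other proteins that act in abscission, 0 were called after premiR-197. Over all genes 0.145% were called lower there and 0.0644% higher. After LNA-miR-197 1 was lower (CIT, the citron kinase gene) and 1 higher (IST1), against 3.58% and 4.09% of all genes. IST1, an ESCRT-III subunit gene, rose by 0.32, 0.63 and 0.74 in A549, PC14 and PC14CDDP (mean 0.56, limma adjusted p = 0.0331). VPS4B, the ATPase gene that disassembles ESCRT-III, was higher after LNA-miR-NC than after NC, by 0.55, 0.96 and 0.67 (mean 0.73, limma adjusted p = 0.0496). It also rose after LNA-miR-197 against NC (mean 1.08, limma adjusted p = 0.00616), a comparison with the same NC arrays. There 2 abscission genes were called lower and 2 higher, against 7.49% and 6.97% of all genes. PDCD6IP, which encodes ALIX and binds CEP55 directly, had a mean log2 change of 0.22 after premiR-197 (limma adjusted p = 0.301) and 0.13 after LNA-miR-197, and TSG101, the other direct partner, -0.09 and 0.03. The ESCRT-III filament gene CHMP4B had 0.02 and 0.35 (limma adjusted p = 0.113). In PC14CDDP, where CEP55 was lower on its first probe, PDCD6IP was higher than in PC14 by 0.90 (limma adjusted p = 5.07e-05) and CHMP4B by 0.83 (limma adjusted p = 0.000303). TSG101 was not called there (0.12). In A549, where CEP55 was not called, PDCD6IP was higher than in PC14 by 0.27 (limma adjusted p = 0.0154). There CHMP4B was higher by 0.81 (limma adjusted p = 0.000183) and TSG101 by 0.46 (limma adjusted p = 0.000973). Of the 20 genes, 9 were called higher and 3 lower in PC14CDDP (25.6% and 22.8% of all genes), and 9 and 10 in A549 (36.1% and 32.1%).

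Of 22 regulators of mitotic transcription, 0 were called after premiR-197, where 0.145% of all genes were called lower and 0.0644% higher. LIN54 and TFDP2 were the 2 that rose after LNA-miR-197 (4.09% of all genes did), and 0 fell (3.58%). TFDP2, a partner of the E2F factors, rose by 0.31, 0.44 and 0.71 (mean 0.48, limma adjusted p = 0.0483). FOXM1 and MYBL2, which activate G2 and mitotic genes, had mean log2 changes of 0.22 (limma adjusted p = 0.338) and 0.33 (limma adjusted p = 0.255) after premiR-197, and 0.11 and -0.01 after LNA-miR-197. After LNA-miR-197 against NC 2 regulators were called lower and 1 higher, where 7.49% and 6.97% of all genes were. E2F5 had the largest fall, with a mean of -0.77 (limma adjusted p = 0.0229). Between lines, FOXM1 was higher in PC14CDDP than in PC14 by 0.60 (limma adjusted p = 0.000753) and differed by -0.99 in A549 (limma adjusted p = 2.08e-05), the same signs as the medians of the 40 members. MYBL2 was higher in PC14CDDP by 0.32 (limma adjusted p = 0.0389) and was not called in A549 (-0.23, limma adjusted p = 0.0943). Of the 22 regulators, 15 were called higher and 3 lower in PC14CDDP (25.6% and 22.8% of all genes). In A549 5 were called higher and 12 lower (36.1% and 32.1% of all genes).

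A further 40 mitotic genes and 17 DNA replication genes were read for comparison. Of the former, limma called 0 after premiR-197, where 0.145% of all genes were lower and 0.0644% higher. DSN1, a kinetochore gene, was the 1 called higher after LNA-miR-197 (4.09% of all genes), and 0 were called lower (3.58%). Between the controls 0 were called, where 0.197% of all genes were lower and 0.459% higher. Of the replication genes 0 were called in any of these 3. At an unadjusted p under 0.05 there were 7, 11 and 3 of the further mitotic genes and 2, 4 and 0 of the replication genes, against 15.9%, 27% and 14.1% of all genes. After LNA-miR-197 against NC, where 7.49% of all genes were called lower and 6.97% higher, 4 further mitotic genes fell (the centromere genes CENPI and CENPK, the condensin subunit NCAPG and the kinetochore gene SPC24) and 1, the checkpoint gene BUB3, rose. GINS1 was the 1 replication gene that fell there, and 0 rose. In PC14CDDP against PC14, where 25.6% of all genes were higher and 22.8% lower, 16 further mitotic genes were higher and 6 lower, and of the replication genes 10 were higher and 2 lower. In A549 against PC14, where 32.1% of all genes were lower and 36.1% higher, 24 further mitotic genes were lower and 8 higher, and 8 replication genes were lower and 1 higher.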

How the data were processed

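RNA from 12 transfections (4 in each of 3 cell lines) was measured on 1 one-colour Agilent array each. The authors deposited the intensity of each spot as Feature Extraction 10.7.3.1 wrote it, with a processed signal that is background-subtracted and not scaled between arrays, and a table of the same intensity values, which equalled the processed signal on all 62976 spots of each array. Probe coordinates in the files are on hg19. The methods read here name Student's t-test in general and no normalization for these arrays. The labels gave the line and transfection of all 12 arrays, and 0 columns held other samples.

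Control spots and outlier-flagged spots (224 to 375 an array) were left out, spots of a probe were averaged, and the log2 processed signal was taken minus that of the 75th percentile of the array (between 405.7 and 476.7 signal units). Probes missing a value on any array (106 of 50599) were dropped. A probe entered when well above background on at least 3 arrays (55.8% to 63.1% of probes were, by array), and the probe with the highest mean stood for its gene name. Saturated spots numbered 0. The number of arrays limits the precision, and repeated spots of a probe had a median SD of 0.07 to 0.08 (log2, 902 probes).

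All 12 arrays entered a limma fit (version 3.58.1, R 4.3.3) with terms for transfection and line. Moderated statistics came from eBayes, p-values were adjusted by Benjamini-Hochberg over 24860 genes, and calls were made at an adjusted p under 0.05. The line pairs the arrays, since it is the same cell line: deviations from the transfection means correlated within lines with r from 0.848 to 0.949. On simulated arrays for premiR-197 against NC (24860 genes), the fit recovered 9 of 70 genes (12.9%) changed by a log2 of 0.5, 40 of 70 (57.1%) at 1 and 49 of 60 (81.7%) at 2, with 4 false calls. The simulated noise was independent between genes, so shifts shared by many genes on 1 array, as in A549, were not part of it.

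The members and all gene lists were chosen with earlier results of these data known. Named were CEP55, the members called, where fewer than 3 were called the 3 largest mean changes of 1 sign in all lines, the 4 largest rises and falls between lines, genes whose probes disagreed in all lines, FOXM1, MYBL2, PDCD6IP, TSG101, CHMP4B, and the 2 largest called changes of the other lists. CCNB2, AURKA, HMMR, BUB1B, KIF2C and KIF23 after transfection, the markers, and called genes outside this rule were named after their values were seen. Alternatives were quantile normalization, normexp with an offset of 50, no dim filter, a filter on every array, averaged probes of a gene, leaving out each line or transfection, no line block, a slide block, fitting the compared arrays alone, a trended robust prior and the methods' t-test. For comparisons between lines, the term for transfection was left out in place of the line block. Files were read and plots drawn in Python 3.11.15 (pandas 2.3.3, numpy 2.4.6, matplotlib 3.10.9).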

Additional observations from a re-analysis of the deposited data

Results flagged for a closer look

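INCENP after premiR-197 ran in opposite directions by line: its log2 change was 0.27 in A549 and -0.51 in PC14, a difference of 0.78 that was not tested, since each value rests on 1 array a transfection.

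In 9 of 120 groups of 4 arrays (1 gene in 1 line), 1 array stood apart from the other 3 by Dixon's criterion, its gap to the nearest other array over the range of the 4. Chance flags about 1 in 20 such groups. In A549 this was the premiR-197 array for HMMR, which was the highest (gap 0.892 of the range). In PC14 it was the LNA-miR-197 array for CENPF (0.84) and KIF2C (0.95), which were highest, and for SPC25 (0.916) and DLGAP5 (0.927), which were lowest, and the premiR-197 array for UBE2C (0.841). In PC14CDDP it was the LNA-miR-197 array, the lowest, for TTK (0.912), KIF11 (0.83) and HMMR (0.909).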

How the results depend on the processing

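With every alternative, 172 counts of called members stayed within 1.5 times and 54 did not, and 97 medians over the members moved by less than their spread and 2 by more. Of the values of named genes 2181 kept their side of the threshold, 55 lost a call and 24 gained one, and 0 changed sign while called. For LNA-miR-197 against LNA-miR-NC, the 1 member called higher became 3 with normexp and with a trended robust prior, and 2 with a filter on all arrays. It became 0 without a filter, with the slide as a block, with the compared arrays alone and with either form of the methods' t-test, and between 0 and 0 with any 1 line left out. For LNA-miR-197 against NC, the 1 member higher became 2 with quantile normalization, normexp, a filter on all arrays and the trended prior. The 1 lower became 2 with normexp, a filter on all arrays, the trended prior and the percentile over probes well above background, which was chosen after seeing the data. Either count was 0 without a filter, with the slide as a block, with only these arrays and with the methods' t-test, and between 0 and 0 with any 1 line left out. For PC14CDDP against PC14, the 5 lower members became 8 with quantile normalization, normexp, the later percentile and the trended prior, and ranged from 3 to 5 with 1 transfection left out (3 without NC and 3 without LNA-miR-NC). The median of 0.21 was 0.10 with quantile normalization and 0.11 with the later percentile. The median of all genes in this comparison went from 0.05 to 0.03 and to -0.05 with these 2 settings. The members' median thus lay above it by 0.16 in the main fit, 0.08 with quantile normalization and 0.16 with the later percentile. The later percentile also moved the median of all genes in A549 against PC14 from 0.09 to 0.20. The CEP55 difference of -0.40 was -0.18 over both probes (limma adjusted p = 0.223) and ranged from -0.47 to -0.31 with 1 transfection left out. Its limma adjusted p was 0.0525 without NC, 0.111 without LNA-miR-197 and 0.0799 without LNA-miR-NC, and the value of -0.40 gave an adjusted p of 0.0816 with the paired and 0.0983 with the unpaired form of the methods' t-test. For A549 against PC14, the 2 higher members became 6 with quantile normalization and the later percentile, 4 with a filter on all arrays and the trended prior, 1 with only these arrays and with the paired form of the methods' t-test, 1 without PC14CDDP, and 1 to 2 with 1 transfection left out (1 without premiR-197 and 1 without NC). At an unadjusted p under the threshold the paired and unpaired forms of the methods' t-test found 3 and 0 members after premiR-197 and 7 and 1 after LNA-miR-197. The cause of these moves was not tested.

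Without the cell line as a replicate block, each count of 1 called member became 0 in the LNA-miR-197 comparisons. Between lines the term left out was the transfection instead. The lower count in PC14CDDP against PC14 then became 3, and the CEP55 difference of -0.40 had a limma adjusted p of 0.0529. Over all genes the calls without the line block went from 52 to 0 after premiR-197, from 1908 to 3 after LNA-miR-197, from 163 to 6 between the controls and from 3594 to 0 for LNA-miR-197 against NC. The number of arrays limits the precision, and every member probe was above background on each of them.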

Other observations

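Set against each other over the 40 members, the mean changes after premiR-197 and after LNA-miR-197 gave 21 genes above both controls, 2 below both, 10 above after premiR-197 and below after LNA-miR-197, and 7 the reverse, CEP55 among them. Across these genes, which share arrays and are not replicates, Pearson's r was -0.10 and Spearman's rho -0.11.

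CDKN1A, the inhibitor of cyclin-dependent kinases named after its values were seen, was higher than in PC14 by 2.35 in PC14CDDP (SE 0.30, limma adjusted p = 0.000321) and by 3.002 in A549 (limma adjusted p = 3.81e-05), while the members' medians were 0.21 and -0.41 in those lines.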
